A study of Homo sapiens with 6 samples.

Results

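The protein kinase C (PKC) family was followed through EWSR1::FLI1 knockdown in A673 cells by the genes of 8 isoforms, PRKCA, PRKCB, PRKCD, PRKCE, PRKCH, PRKCI, PRKCQ and PRKCZ. Members were chosen by gene symbol, and each had 1 of the 26364 symbols in the expression table. PRKCB lost most of its transcript upon knockdown, falling from 74.6 ± 7.14 to 9.14 ± 3.94 FPKM (fragments per kilobase of transcript, scaled by a factor per library; SD, n = 3 in each group), while PRKCA, PRKCH and PRKCE rose from low levels. PRKCI, the other abundant isoform, was at 34.8 ± 0.561 and 31.2 ± 5.52 FPKM (SD, n = 3 per group), and its difference did not pass the test.

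A673 cells come from an Ewing sarcoma and carry EWSR1::FLI1, the fusion transcription factor that drives this tumour. The derivative A673/TR/shEF also holds a tetracycline repressor and an shRNA against the fusion mRNA that doxycycline switches on. RNAseq was available for 3 libraries of untreated cells (EWSR1::FLI1high) and 3 libraries of cells given 1 µg/mL doxycycline for 72 h (EWSR1::FLI1low). All 6 libraries share the shRNA construct, and no library of doxycycline-treated cells without the shRNA was analysed here, so an effect of doxycycline itself cannot be told apart from that of the knockdown. The replicates are called clones in the series' design and experiments in the sample titles, so the p-values measure the spread between these libraries, which may be technical. In bulk RNA, fewer cells with a transcript and less transcript per cell cannot be told apart.

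PKC isoforms are serine/threonine kinases that relay signals from the plasma membrane. Conventional isoforms (PRKCA, PRKCB) need calcium and diacylglycerol, the lipid that phospholipase C releases together with IP3. Calcium-independent isoforms (PRKCD, PRKCE, PRKCH, PRKCQ) need diacylglycerol but not calcium, and atypical isoforms (PRKCI, PRKCZ) need neither and act with the PAR polarity proteins. PRKCB is a known direct target gene of EWSR1::FLI1 in Ewing sarcoma, while PRKCB, PRKCH and PRKCQ are also known from lymphocytes, among other cells.

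Between 6980361 and 16658933 reads on genes were recovered per library, the deepest being EWSR1::FLI1low replicate 3. FPKM divide reads by a factor per library that did not follow these totals. EWSR1::FLI1low replicate 1 had the fewest reads, yet a larger factor than EWSR1::FLI1low replicate 2 (0.951 and 0.877). FLI1, which gives the 3′ part of the fusion mRNA, was at 11.3, 12.7 and 14.2 FPKM before knockdown and at 2.91, 4.29 and 3.68 FPKM in the EWSR1::FLI1low replicates (log2 fold change -1.57, adjusted p = 0.000676, limma). EWSR1::FLI1low libraries differed more among themselves, with a chi-square per degree of freedom of 20.2 to 31.5 between pairs against 4.25 to 6.27 in EWSR1::FLI1high. The number of genes that passed an adjusted p of 0.01 (limma) was 1222 with all libraries, 2334 without EWSR1::FLI1low replicate 1, and 566, 475 and 478 without EWSR1::FLI1high replicate 1, 2 or 3. Fold changes below were estimated with limma on log2(FPKM + 1) over 15504 genes with a mean of at least 0.5 FPKM, with Benjamini-Hochberg adjustment over all of them. A fold change on this scale understates the change of a gene with low FPKM, so the ratio of mean FPKM is given as well.

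The regions just before the transcription starts of the 3 isoforms with the largest log2 fold changes are shown because EWSR1::FLI1 and other ETS factors recognise the core GGAA, and the fusion also binds runs of it. The sequences are RefSeq promoter windows of GRCh38.p14, limited to the 250 bases before the start, and each was placed on GRCh37 by its 1 exact match. All run 5′ to 3′ on the plus strand, and capitals mark GGAA or its reverse complement TTCC. PRKCB lies at chr16:23847054-23847303, PRKCA at chr17:64298481-64298730 and PRKCH at chr14:61788047-61788296. The PRKCH window precedes a RefSeq start and lies inside the GENCODE span given for this gene below, which begins at 61654277.
PRKCB: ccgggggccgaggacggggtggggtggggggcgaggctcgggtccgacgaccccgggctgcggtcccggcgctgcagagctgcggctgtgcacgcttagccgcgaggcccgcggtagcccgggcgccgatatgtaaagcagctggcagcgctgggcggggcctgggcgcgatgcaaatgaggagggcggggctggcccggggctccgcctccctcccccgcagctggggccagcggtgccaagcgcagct
PRKCA: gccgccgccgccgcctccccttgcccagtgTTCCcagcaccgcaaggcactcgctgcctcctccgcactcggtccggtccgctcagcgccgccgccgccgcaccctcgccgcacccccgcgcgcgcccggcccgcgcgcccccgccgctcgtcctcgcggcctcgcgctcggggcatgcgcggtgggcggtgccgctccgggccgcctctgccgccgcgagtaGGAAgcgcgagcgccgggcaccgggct
PRKCH: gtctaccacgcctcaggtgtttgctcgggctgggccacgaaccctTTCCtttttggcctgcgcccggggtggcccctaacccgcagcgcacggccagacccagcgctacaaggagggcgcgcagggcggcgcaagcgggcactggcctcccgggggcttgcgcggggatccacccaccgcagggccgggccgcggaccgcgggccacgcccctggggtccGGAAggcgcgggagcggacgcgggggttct
The PRKCB window held 0 matches to GGAA on either strand, and the PRKCA and PRKCH windows held 2 each. Among 35116 RefSeq promoter windows of the same length, 92.7% held at least 1 match and the median was 3. The doubled core GGAAGGAA was in none of the 3 windows and in 3.06% of all windows. Over the 13 windows of the 8 isoforms, the number of GGAA matches ranged from 0 to 5, and 2 windows held the doubled core, 1 of PRKCD and 1 of PRKCZ. These matches describe the letters in the windows and were not tested against expression.

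Conventional isoforms moved in opposite directions. PRKCB (ENSG00000166501) spans chromosome 16, 23847304 to 24231932, on the plus strand of GRCh37. Its expression was 72.5, 68.8 and 82.6 FPKM in EWSR1::FLI1high replicates 1, 2 and 3, from 6100, 4393 and 5127 reads. In EWSR1::FLI1low replicates 1, 2 and 3 it was 13.5, 5.80 and 8.15 FPKM, from 961, 381 and 1018 reads. Every EWSR1::FLI1low library was below every EWSR1::FLI1high library, and replicate 1 kept the most PRKCB of the treated libraries. FLI1 had 113, 154 and 251 reads in EWSR1::FLI1low replicates 1, 2 and 3. Replicate 1 had the lowest FLI1 in FPKM, but the order of FLI1 among these libraries depends on the scaling. PRKCB fell by 2.96 on the log2 scale (SE 0.27, limma, adjusted p = 0.00024), and the ratio of mean FPKM was 8.16-fold lower. Only 9 of the 15504 genes tested had a more negative log2 fold change.

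PRKCA, the other conventional isoform (ENSG00000154229, chromosome 17, 64298731 to 64806861, plus strand, GRCh37), is broadly expressed across tissues. It was at 1.35, 1.62 and 2.33 FPKM in EWSR1::FLI1high libraries 1, 2 and 3, from 124, 113 and 158 reads, and at 4.73, 9.47 and 11.5 FPKM in EWSR1::FLI1low replicates 1, 2 and 3, from 369, 681 and 1574 reads. The groups did not overlap, and replicate 1 was the lowest of the treated libraries. PRKCA rose by 1.73 on the log2 scale (SE 0.29, limma, adjusted p = 0.00416), a 4.86-fold higher mean FPKM. Its adjusted p was 0.0131 without a filter on low values and lay between 0.0103 and 0.0229 when any library other than EWSR1::FLI1low replicate 1 was left out, all above the limit of 0.01. Without EWSR1::FLI1low replicate 1, PRKCA rose by 2.07 on the log2 scale (limma, adjusted p = 0.000264). PRKCA-AS1, on the opposite strand within PRKCA but with no exon overlap, had 0 to 11 reads per library, and the microRNA gene MIR634 had 1 read in 1 library.

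**Figure D1:**
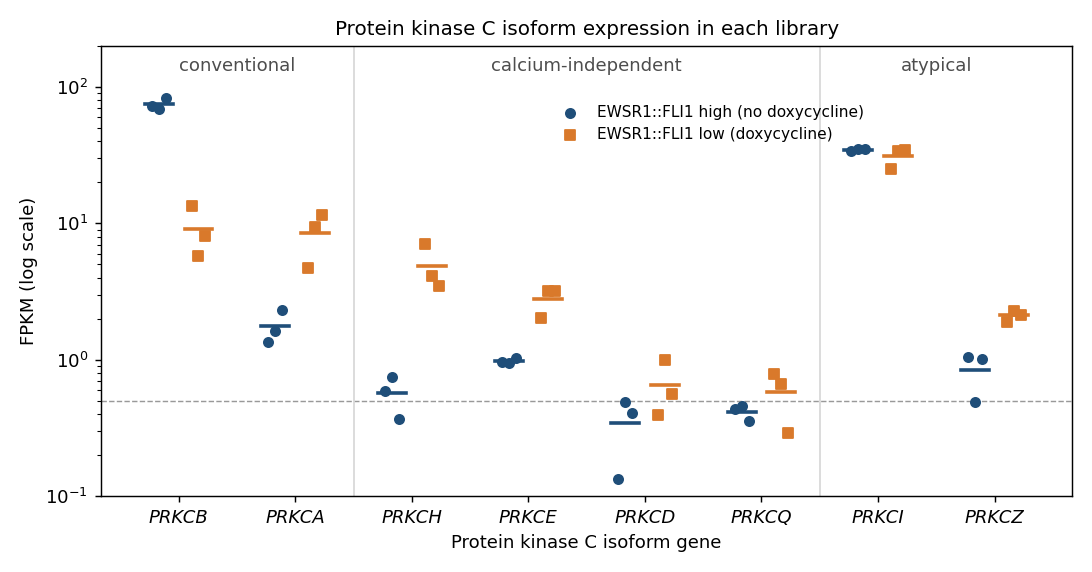
FPKM (log axis) of each PKC isoform gene in 3 EWSR1::FLI1high libraries (circles) and 3 EWSR1::FLI1low libraries (squares), in replicate order from left to right, with a bar at the group mean and a dashed line at the filter of 0.5 FPKM. PRKCB is the isoform whose treated libraries all lie below the untreated ones, at 5.80 to 13.5 against 68.8 to 82.6 FPKM, while PRKCA, PRKCH, PRKCE and PRKCZ show the reverse order.

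Among the calcium-independent, diacylglycerol-responsive isoforms, PRKCH had the highest ratio of mean FPKM of the isoforms that rose. PRKCH (ENSG00000027075, chromosome 14, 61654277 to 62017694, plus strand, GRCh37) encodes PKC eta, which is known from epithelial and lymphoid cells. It was at 0.592, 0.748 and 0.368 FPKM in EWSR1::FLI1high replicates 1, 2 and 3, from 24, 23 and 11 reads. In EWSR1::FLI1low replicates 1, 2 and 3 it was at 7.11, 4.14 and 3.46 FPKM, from 244, 131 and 208 reads. Groups were far apart, and replicate 1 had the highest PRKCH of the treated libraries, while it had their lowest PRKCA. PRKCH rose by 1.87 on the log2 scale (SE 0.24, limma, adjusted p = 0.00106), and its mean FPKM was 8.61-fold higher. Log2 fold changes larger than this were found for 292 of the 15504 genes. On a scale less compressed at low FPKM, with a pseudocount of 0.1 in place of 1, the log2 fold change of PRKCH was 2.88.

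TMEM30B, a lipid flippase subunit gene, lies on the opposite strand within the span of PRKCH, and exons of the genes overlap in GENCODE. It spans 61744088 to 61748479, before the PRKCH window shown above. Whether strand was used in counting is not given in the sources used here. TMEM30B had 19, 9 and 2 reads in EWSR1::FLI1high and 17, 15 and 15 reads in EWSR1::FLI1low replicates 1, 2 and 3, so its counts were far below those of PRKCH in treated libraries and of similar size or lower in untreated ones.

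PRKCE (ENSG00000171132, chromosome 2, 45878484 to 46415129, plus strand, GRCh37) encodes PKC epsilon, known for roles in cell motility and survival. Its expression was 0.967, 0.955 and 1.03 FPKM in EWSR1::FLI1high replicates 1, 2 and 3, from 56, 42 and 44 reads, and 2.04, 3.20 and 3.20 FPKM in EWSR1::FLI1low replicates 1, 2 and 3, from 100, 145 and 275 reads. All treated libraries were above all untreated ones, and replicate 1 was again the lowest of the treated. PRKCE rose by 0.93 on the log2 scale (SE 0.18, limma, adjusted p = 0.00837), a 2.86-fold higher mean FPKM. That call was close to the limit: the adjusted p was 0.0248 without a filter, 0.0133 with quantile normalization, and between 0.0266 and 0.0412 when any library other than EWSR1::FLI1low replicate 1 was left out, against 0.00139 without EWSR1::FLI1low replicate 1.

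PRKCD and PRKCQ stayed just under the filter, with means over the 6 libraries of 0.497 and 0.499 FPKM. PRKCD (ENSG00000163932, chromosome 3, 53190025 to 53226733, plus strand, GRCh37), whose product PKC delta takes part in apoptosis, was at 0.134, 0.487 and 0.410 FPKM in EWSR1::FLI1high and at 0.397, 0.989 and 0.566 FPKM in EWSR1::FLI1low replicates 1, 2 and 3. PRKCQ (ENSG00000065675, chromosome 10, 6469105 to 6622263, minus strand, GRCh37), which encodes PKC theta of T cells and muscle, was at 0.435, 0.458 and 0.354 FPKM in EWSR1::FLI1high and at 0.787, 0.668 and 0.293 FPKM in EWSR1::FLI1low replicates 1, 2 and 3. For both genes the groups overlapped, and each library held only 4 to 25 reads of PRKCD and 9 to 23 reads of PRKCQ. In a limma fit without the filter, the log2 fold change was 0.29 for PRKCD (95% confidence interval -0.11 to 0.69, adjusted p = 0.377) and 0.15 for PRKCQ (-0.20 to 0.50, adjusted p = 0.62). At this depth no difference was detectable for either. CD3E, a T cell gene used here as a marker of other cell types, reached 0.669 FPKM in EWSR1::FLI1low replicate 1, within the range of PRKCD and PRKCQ, and its part in these levels was not tested.

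Neither atypical isoform passed the limit, and 1 of them was abundant in both groups. PRKCI (ENSG00000163558, chromosome 3, 169940212 to 170023765, plus strand, GRCh37), the polarity kinase PKC iota, was at 34.2, 35.0 and 35.2 FPKM in EWSR1::FLI1high libraries 1, 2 and 3, and at 24.9, 34.1 and 34.8 FPKM in EWSR1::FLI1low replicates 1, 2 and 3. In FPKM, treated replicates 2 and 3 lay close to or within the untreated range, and replicate 1 was below it. Treated replicates 1, 2 and 3 had 1081, 1366 and 2645 PRKCI reads, and how far replicate 1 lay below depends on the scaling. The log2 fold change of PRKCI was -0.17 (95% confidence interval -0.60 to 0.27, adjusted p = 0.584, limma). That interval still allows a fall of 0.60 on the log2 scale.

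PRKCZ (ENSG00000067606, chromosome 1, 1981850 to 2116834, plus strand, GRCh37), which encodes PKC zeta, was at 1.05, 0.489 and 1.01 FPKM in EWSR1::FLI1high replicates 1, 2 and 3, from 34, 12 and 24 reads. It was at 1.90, 2.30 and 2.15 FPKM in EWSR1::FLI1low replicates 1, 2 and 3, from 52, 58 and 103 reads. The groups did not overlap, yet the log2 fold change of 0.76 (95% confidence interval 0.36 to 1.17) missed the limit, with an adjusted p of 0.0196 (limma). Its mean FPKM was 2.49-fold higher in EWSR1::FLI1low cells. FAAP20, a DNA repair gene, overlaps exons of PRKCZ on the opposite strand and was at 0.558 to 0.849 FPKM over the 6 libraries, with 52, 37 and 46 reads in EWSR1::FLI1high and 49, 32 and 85 reads in EWSR1::FLI1low replicates 1, 2 and 3.

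**Figure D2:**
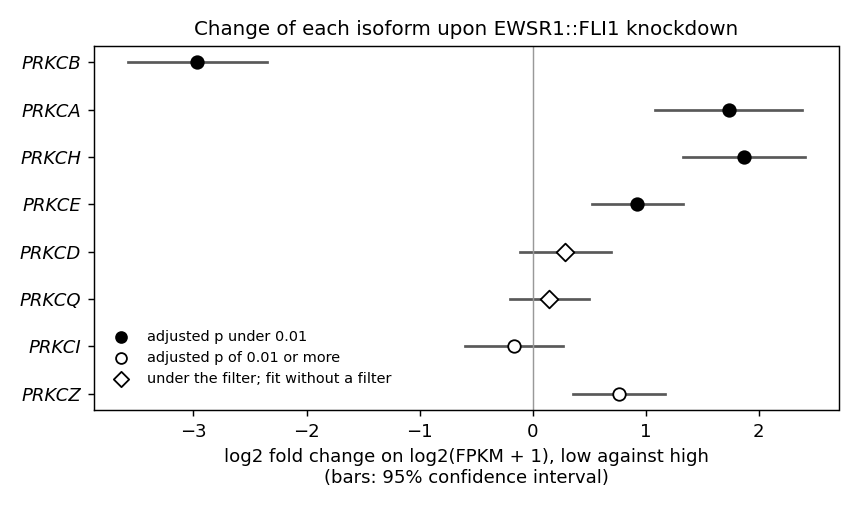
Log2 fold change of each isoform on log2(FPKM + 1), EWSR1::FLI1low against EWSR1::FLI1high, with 95% confidence intervals from limma. Filled points had an adjusted p under 0.01 (PRKCB at -2.96, PRKCA at 1.73, PRKCH at 1.87 and PRKCE at 0.93), open circles did not, and diamonds are genes under the filter, from the fit without it.

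Of the 8 isoforms, 6 could be tested, and 4 passed the limit of 0.01 on the adjusted p (limma), 3 higher and 1 lower in EWSR1::FLI1low cells. Over all 15504 genes, 7.88% passed this limit, 4.51% as higher and 3.37% as lower. In 5 of the 6 isoforms tested the groups did not overlap, which was also true of 41.1% of all genes tested. The median log2 fold change of the 6 isoforms was 0.85, beside -0.05 over all genes. Only PRKCB and PRKCH passed when the filter was dropped or when any single library other than EWSR1::FLI1low replicate 1 was left out.

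FPKM is a level per transcript length, so the isoforms can be set side by side. Before knockdown the order of mean FPKM was PRKCB, PRKCI, PRKCA, PRKCE, PRKCZ, PRKCH, PRKCQ and PRKCD. Ranges were separate between PRKCB and PRKCI, between PRKCI and PRKCA and between PRKCA and PRKCE, and neighbours from PRKCE downwards overlapped. After knockdown PRKCI came first, above PRKCB in all 3 libraries with ranges of 24.9 to 34.8 and 5.80 to 13.5 FPKM. PRKCB and PRKCA then overlapped, with PRKCB above PRKCA in 1 of 3 libraries, as did PRKCA and PRKCH. PRKCH was above PRKCE in all 3 libraries, with ranges that did not overlap.

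Summed over the 8 isoforms, expression was 111, 109 and 123 FPKM in EWSR1::FLI1high replicates 1, 2 and 3 and 55.3, 60.7 and 64.1 FPKM in EWSR1::FLI1low replicates 1, 2 and 3. Without PRKCB the sum ran the other way, from 39.7 ± 1.010 to 50.9 ± 7.84 FPKM (SD, n = 3 per group). PRKCB made up 65.2, 63.3 and 67.0% of the summed FPKM in EWSR1::FLI1high libraries and 24.4, 9.56 and 12.7% in EWSR1::FLI1low libraries 1, 2 and 3. PRKCI therefore became the largest component, at 30.5 ± 1.86% before and 51.8 ± 5.997% after knockdown (SD, n = 3 per group). The 4 calcium-independent, diacylglycerol-responsive isoforms together went from 2.03 ± 0.359% to 15.1 ± 3.48%, and PRKCA from 1.53 ± 0.339% to 14.0 ± 4.90% (SD, n = 3 per group). These shares were chosen with the members' values known and are given as a description.

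**Figure D3:**
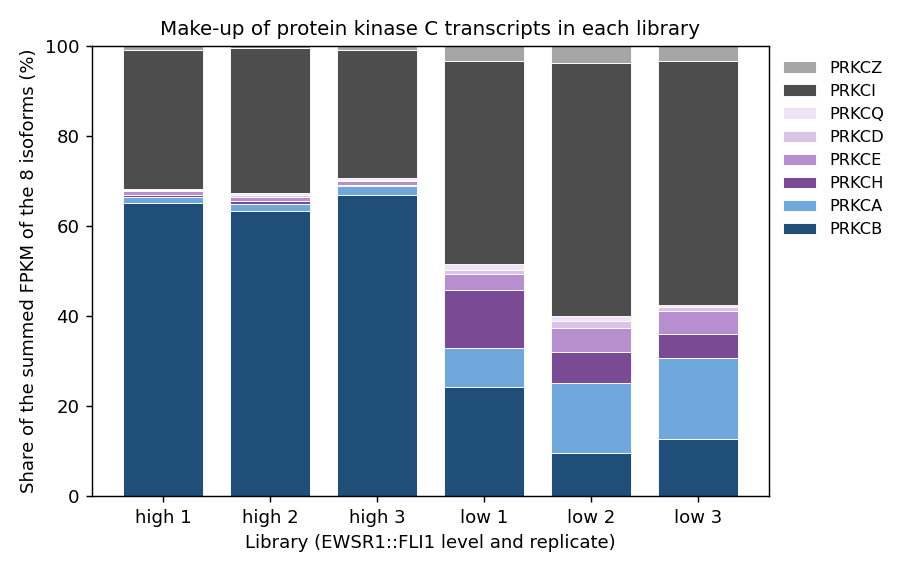
Stacked bars of the share (%) of each isoform in the summed FPKM of the 8 isoforms, 1 bar per library. PRKCB holds 63.3 to 67.0% of each untreated bar and 9.56 to 24.4% of each treated bar, where PRKCI holds the largest share.

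The ratios of closely related isoforms within each library are given as a description, with the pairs chosen with earlier results known. The ratio of PRKCB to PRKCA was 53.8, 42.5 and 35.5 in EWSR1::FLI1high replicates 1, 2 and 3. It was 2.85, 0.612 and 0.708 in EWSR1::FLI1low replicates 1, 2 and 3, so that PRKCA exceeded PRKCB in replicates 2 and 3. On the log2(FPKM + 1) scale the ratio fell by 4.70 (exact permutation test, two-sided, p = 0.1). PRKCH relative to PRKCE, both of the calcium-independent class, went from ratios of 0.613, 0.783 and 0.358 to 3.49, 1.29 and 1.08, a log2 difference of 0.94 (exact permutation test, two-sided, p = 0.1). This second difference was 0.53 without EWSR1::FLI1low replicate 1 and 1.48 with a pseudocount of 0.1. With 3 libraries against 3, a p of 0.1 is the smallest this test can give, and it is also the value after adjustment over the 2 pairs. PRKCB fell and PRKCA rose without overlap of the groups, so the test of their ratio could give no other p. In the annotated transcripts, 0 stretches of 75 bases, the read length, were shared between any of the 8 isoforms.

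Genes whose pattern over the 6 libraries was most like that of PRKCB were ADRB3, POU3F1, DOK6, FEZF1-AS1 and BCAS1, with Pearson's r from 0.998 to 0.999 on log2(FPKM + 1). ADRB3, a beta-adrenergic receptor gene, went from 2.66 ± 0.171 to 0.425 ± 0.231 FPKM, and POU3F1, a neural POU transcription factor gene, from 9.86 ± 0.339 to 2.05 ± 0.618 FPKM (SD, n = 3 per group). For PRKCH the nearest genes were CHRNB1, WDR78, TCP11L2, RERG and GPX3, with r from 0.994 to 0.999. CHRNB1 itself was not called (log2 fold change 0.31, adjusted p = 0.17, limma), and WDR78 lost its call without a filter, with quantile normalization and without any library other than EWSR1::FLI1low replicate 1 (adjusted p up to 0.0353, limma). RERG, a Ras-like growth inhibitor gene, went from 0.318 ± 0.146 to 6.83 ± 3.22 FPKM and GPX3, a secreted glutathione peroxidase gene, from 0.216 ± 0.0692 to 5.03 ± 2.34 FPKM (SD, n = 3 per group). These correlations rest on 6 libraries in 2 groups and share their libraries and scaling, and 55 genes were above r = 0.99 with PRKCB and 15 with PRKCH.

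Genes around the kinases were then examined in 10 lists of PKC regulators, partners and substrates. Of 84 genes in the table, 74 were tested, and 2 were higher and 4 lower at an adjusted p under 0.01 (limma), or 8.11% beside 7.88% of all genes. Their median log2 fold change was 0.03, against -0.05 over all genes.

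Few genes of the step that produces diacylglycerol passed the test. Among Gq alpha subunits, which switch on phospholipase C, 1 of 3 tested genes passed: GNA14 fell from 10.6 ± 1.98 to 2.995 ± 0.65 FPKM (SD, n = 3 per group; log2 fold change -1.54, adjusted p = 0.00107, limma). None of the 12 phospholipase C genes tested passed with limma on FPKM, although 5 were higher and 1 lower at an unadjusted p under 0.05 and 1 passed with limma-voom on recovered reads. PLCG1 and PLCB1, the most abundant of these, were at 20.7 ± 1.16 and 8.21 ± 1.38 FPKM in EWSR1::FLI1high and 21.3 ± 2.48 and 14.2 ± 1.06 FPKM in EWSR1::FLI1low cells (SD, n = 3 per group). Of the 3 IP3 receptor genes, which release stored calcium, 0 passed with limma on FPKM or limma-voom and 2 were higher at an unadjusted p under 0.05. ITPR1 went from 11.8 ± 1.44 to 20.1 ± 0.845 FPKM (SD, n = 3 per group; adjusted p = 0.0194, limma), and ITPR2 from 12.0 ± 1.33 to 21.0 ± 4.84 FPKM (adjusted p = 0.0406, limma).

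Diacylglycerol kinases remove the lipid, and 1 of the 10 tested passed with limma on FPKM. In this list 3 genes were higher and 2 lower at an unadjusted p under 0.05, and 3 passed with limma-voom. DGKG fell from 19.4 ± 2.08 to 5.28 ± 1.996 FPKM (SD, n = 3 per group; log2 fold change -1.75, adjusted p = 0.0024, limma). This call was lost without EWSR1::FLI1high replicate 2 or 3 (adjusted p up to 0.0168, limma). Among 7 other diacylglycerol receptors tested, CHN2, which encodes the Rac inhibitor beta-chimaerin, fell from 17.7 ± 0.853 to 4.02 ± 1.92 FPKM (SD, n = 3 per group; log2 fold change -1.96, adjusted p = 0.00123, limma). At an unadjusted p under 0.05, 3 of these receptor genes were higher and 1 was lower, and 2 passed with limma-voom. None of the 6 protein kinase D and PKC-related kinase genes passed with limma on FPKM or limma-voom, and 1 was lower at an unadjusted p under 0.05. PRKD3 was at 33.4 ± 3.37 and 34.1 ± 5.65 FPKM and PKN2 at 33.8 ± 2.05 and 29.2 ± 2.29 FPKM in EWSR1::FLI1high and EWSR1::FLI1low cells (SD, n = 3 per group).

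The kinases and phosphatases that set PKC phosphorylation, PDPK1, the mTORC2 subunits and PHLPP1 and PHLPP2, held 0 of 7 genes past the limit with limma on FPKM or limma-voom, and 1 was lower at an unadjusted p under 0.05. The most abundant of them, MAPKAP1 and MTOR, were at 49.4 ± 7.80 and 23.3 ± 2.62 FPKM in EWSR1::FLI1high and 50.0 ± 12.4 and 17.1 ± 2.32 FPKM in EWSR1::FLI1low cells (SD, n = 3 per group). Scaffolds had 0 of 4 genes past the limit with limma on FPKM or limma-voom, with 1 higher and 1 lower at an unadjusted p under 0.05. GNB2L1, the gene of RACK1, was at 585 ± 25.6 and 541 ± 31.4 FPKM (SD, n = 3 per group). For AKAP12, EWSR1::FLI1high libraries gave 59.8, 64.3 and 94.5 FPKM, EWSR1::FLI1low libraries 76.8, 361 and 194 FPKM, and these groups overlapped.

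Polarity partners of the atypical isoforms had 1 of 10 genes past the limit, with 2 higher and 2 lower at an unadjusted p under 0.05. PARD6B, an adaptor that binds PKC iota and zeta, was at 22.2, 18.1 and 19.1 FPKM in EWSR1::FLI1high and 6.41, 4.54 and 4.84 FPKM in EWSR1::FLI1low replicates 1, 2 and 3. Groups were apart, and PARD6B fell by 1.74 on the log2 scale (limma, adjusted p = 0.000467), while PRKCI did not pass the test.

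Substrates and downstream proteins had 2 higher and 0 lower of 12 tested with limma on FPKM. In this list 6 genes were higher and 0 lower at an unadjusted p under 0.05, and 3 passed with limma-voom. GAP43, a growth cone protein phosphorylated by PKC, was at 15.3, 19.6 and 15.0 FPKM in EWSR1::FLI1high and 118, 165 and 165 FPKM in EWSR1::FLI1low replicates 1, 2 and 3 (log2 fold change 3.08, adjusted p = 6.3e-05, limma). MARCKS, an actin-binding PKC substrate, rose from 53.4 ± 5.83 to 98.5 ± 3.996 FPKM (SD, n = 3 per group; log2 fold change 0.88, adjusted p = 0.00895, limma). The MARCKS call was lost without any library other than EWSR1::FLI1low replicate 1 (adjusted p up to 0.063, limma), and also without a filter (adjusted p = 0.0146, limma).

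**Figure D4:**
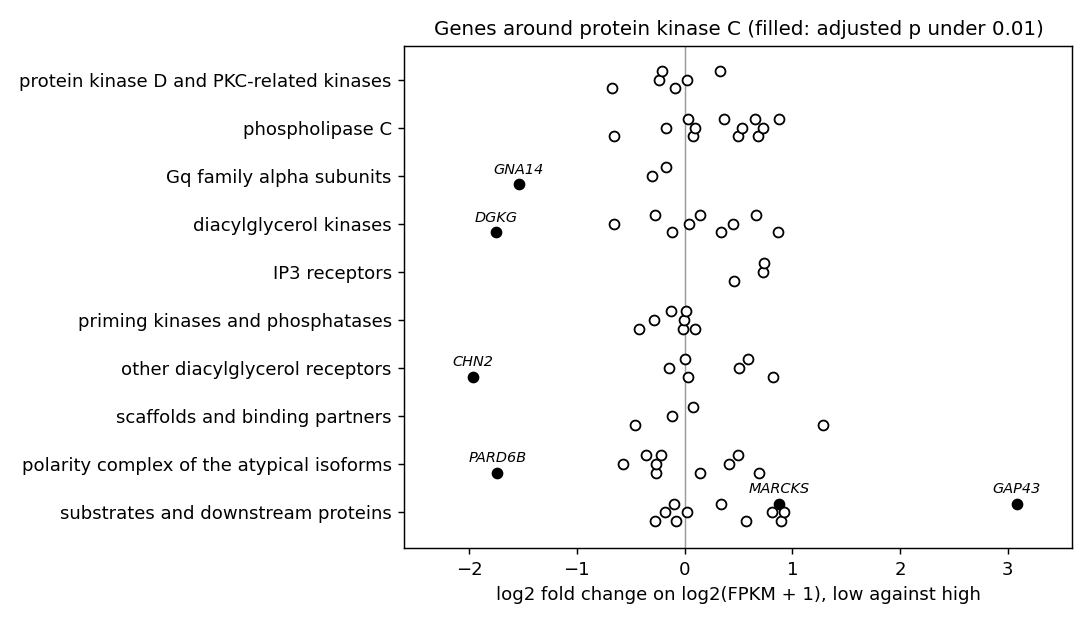
Log2 fold change on log2(FPKM + 1), EWSR1::FLI1low against EWSR1::FLI1high, of the 74 tested genes around protein kinase C, 1 row per list, with genes at an adjusted p under 0.01 (limma) filled and named. GAP43 at 3.08 and MARCKS at 0.88 are the filled points to the right of 0, and the 4 filled points to the left run from GNA14 at -1.54 to CHN2 at -1.96.

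Because several PKC isoforms mark other tissues, defining genes of those tissues were checked. None of 5 blood cell markers passed the filter on mean FPKM, and the highest value of any was 0.669 FPKM. Their sum was 1.18 to 1.61 FPKM in EWSR1::FLI1high and 0.912 to 2.32 FPKM in EWSR1::FLI1low libraries. Summed endothelial markers were at 1.02 to 1.54 FPKM in EWSR1::FLI1high and 7.54 to 9.70 FPKM in EWSR1::FLI1low libraries. KDR, the VEGF receptor 2 gene, made up most of the sum in EWSR1::FLI1low. KDR rose from 0.347 ± 0.13 to 6.81 ± 1.59 FPKM and passed the limit (SD, n = 3 per group; log2 fold change 2.52, adjusted p = 0.000108, limma). PECAM1, an adhesion gene of endothelium and platelets, was at 0.331 ± 0.0465 and 1.12 ± 0.379 FPKM with groups that did not overlap (SD, n = 3 per group; adjusted p = 0.0333, limma), and both genes were called by limma-voom, while CDH5, VWF and TEK stayed under the filter. Skeletal muscle markers summed to 1.23 to 1.53 and 1.77 to 2.38 FPKM, with MYOD1 and CKM at no more than 3 reads in any library. Epithelial markers summed to 51.0 to 79.7 and 42.4 to 112 FPKM, nearly all of it KRT18, and EPCAM was at most at 0.876 FPKM. Ewing sarcoma genes summed to 342 to 359 FPKM in EWSR1::FLI1high and 136 to 142 FPKM in EWSR1::FLI1low libraries. Of these 7 genes, 5 passed the limit as lower, FLI1 among them. CD99, the surface marker of this tumour, was at 133 ± 13.2 and 91.8 ± 11.6 FPKM and did not pass (SD, n = 3 per group; adjusted p = 0.067, limma). The part of these marker genes in the PKC values was not tested.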

How the data were processed

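RNAseq of ribosomal RNA-depleted libraries was analysed in 6 samples, grouped and numbered by their titles. The submitters' processing notes and the methods name STAR 2.5.0b, bedtools 2.17.0, Cufflinks 2.2.1 and DESeq2 1.6.3 with GRCh37. The authors deposited FPKM per gene symbol and library, and a table of their own comparison with a mean signal (mean normalized count per gene), a log2 fold change, its standard error, a Wald score and p-values, of which only the mean signal was used here. Scaled to it, 100% of the FPKM values above 0 were whole multiples (within 0.1) of 1 read, which gave reads per gene.

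Genes with a mean of at least 0.5 FPKM were tested with limma 3.58.1 in R 4.3.3 (eBayes with trend) on log2(FPKM + 1), and called at an adjusted p under 0.01. On simulated data with changes of 2 on the log2 scale, the fit recovered 160 of 200, with 2 false calls among 15304 unchanged genes. This simulation gave both groups the same spread, whereas the EWSR1::FLI1low libraries differed more among themselves. Its changed genes were drawn only from those with an untreated mean above 2 on log2(FPKM + 1). PRKCA, PRKCE, PRKCH and PRKCZ lay below this, so the recovery does not describe genes at their levels. Isoform ratios were compared with an exact permutation test. Gene positions are from GENCODE v44 lifted to GRCh37. Python 3.11.15, pandas 2.3.3, scipy 1.17.1 and matplotlib 3.10.9 were used. Members, gene lists and tests were chosen with earlier results of these data known, and 2 genes of the lists are not reported here. All 8 isoforms and FLI1 were named, genes of a list where they passed the limit or, in lists with none, the 2 most abundant, genes overlapping an isoform, and the 5 most correlated with PRKCB and PRKCH. Marker genes were named after their values were seen. Alternatives were another pseudocount, other filters and scalings, eBayes without trend, a replicate block, sample weights, limma-voom on reads, and leaving out each library.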

Additional observations from a re-analysis of the deposited data

How the results depend on the processing

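PRKCB and PRKCH kept their direction and their call under all 15 alternatives, with log2 fold changes from -3.32 to -2.71 and from 1.62 to 3.03, and PRKCI was not called under any, at -0.25 to -0.002. PRKCA was at 1.73 without a filter (adjusted p = 0.0131, limma), and PRKCE at 0.93 without a filter (adjusted p = 0.0248, limma) and 0.77 with quantile normalization (adjusted p = 0.0133, limma), all no longer called. PRKCZ was called at 0.85 with sample quality weights (adjusted p = 0.0024, limma). Median-ratio scaling left the values nearly as they were, with PRKCB at -2.963 and 1222 genes called. FPKM already held the library factor of the authors' normalized counts, so this alternative could change little and is a weak check. No alternative scaled the libraries by their total reads. Leaving out 1 library gave log2 fold changes of 1.503 to 2.07 for PRKCA, 0.85 to 1.08 for PRKCE and 0.62 to 0.85 for PRKCZ. The count of isoforms called, 4 with all libraries, was 2 without a filter and from 2 to 4 when 1 library was left out. Over all genes, 1222 calls became 753 without a filter, 1992 with quantile normalization, 4745 with sample quality weights and from 475 to 2334 when 1 library was left out. More genes entered the adjustment without a filter, and fewer samples the fits without a library; the cause of the other shifts was not tested. None of the 6 isoforms tested changed direction in these fits. FLI1 and the called genes named from the PKC lists and the correlations made 16 genes with 240 values, of which 225 kept the call and 15 lost it. Marker genes other than FLI1, KDR among them, were not counted there.

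Equal replicate numbers are not stated to share a culture, so they were not taken as pairs. After subtraction of group means, libraries with equal numbers correlated at r of 0.271, 0.089 and 0.124. Those with unequal numbers correlated at r of -0.289, -0.052, -0.008, -0.089, -0.242 and 0.189. Equal numbers thus correlated more in most cases, and whether they are pairs is not settled here. When the block of replicate numbers was fitted, 1702 genes and again 4 isoforms were called, with PRKCB at -2.96 and PRKCZ, not called, at 0.76 (adjusted p = 0.0215, limma); not every library correlated best with its own number. Depth limits PRKCD, PRKCQ, PRKCZ and PRKCH before knockdown, which had 4 to 34 reads per library there.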
